A study of Mus musculus with 12 samples.

Results

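The respiratory chain genes described here are the protein subunits of the 5 complexes of oxidative phosphorylation, chosen by gene name alone. They numbered 92 of the 11911 genes listed, after 3 pseudogene names of 95 matching names were dropped: 13 subunits encoded by mitochondrial DNA and 79 encoded by nuclear genes. The 13 mitochondrial subunits belong to complex I (7 genes), complex III (1), complex IV (3) and complex V (2), and the 79 nuclear ones to complex I (37), complex II (4), complex III (8), complex IV (14) and complex V (16). Grouping followed the gene symbols, so Ndufa4 and its relative Ndufa4l2 were kept with complex I although the Ndufa4 protein is now counted with complex IV, Cox7a2l, which helps to join complexes into supercomplexes, was kept with complex IV, and Atp5s, a factor coupled to ATP synthase, with complex V.

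The libraries came from neutrophils of mouse hearts. By genotype label 6 are control, with title numbers 2, 6, 7, 8, 11 and 12, and 6 are LOY, with title numbers 3, 4, 5, 10, 14 and 15; the series title speaks of hematopoietic loss of the Y chromosome. From digested left ventricles, 800 cells per library were sorted that carried CD45.2 (a leukocyte antigen), Ly6G (a neutrophil antigen) and red fluorescent protein but lacked CD64, an Fc receptor of macrophages. All titles name a control bone marrow transplant, and the treatment label is control throughout. The labels used here give no age or strain and do not say how the Y chromosome was removed or what drives the red fluorescent protein. Whether each library came from its own animal is not stated either, so the spread behind every p-value is one between libraries and may be technical. Values are normalised reads, that is, the reads of a gene over a size factor of its library (0.789 to 1.76).

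In the respiratory chain, electrons from NADH enter at complex I and those from succinate at complex II. They pass through ubiquinone to complex III, through cytochrome c to complex IV and on to oxygen, and the proton gradient built on the way drives ATP synthase, complex V. Mitochondrial DNA encodes a few core subunits of complexes I, III, IV and V and is copied into long transcripts from both strands that are cut into single messenger, ribosomal and transfer RNAs; complex II is wholly nuclear encoded. Mature neutrophils are known to hold few mitochondria and to make most of their ATP by glycolysis, while heart muscle is among the tissues richest in respiratory chain.

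The libraries held 6767108 to 12561174 reads in the listed genes. Without molecular identifiers, PCR copies count as reads. Among 3 Y-linked genes, summed normalised reads were 1032 to 1972 with the control label and 0 to 59.3 with the LOY label. The 12 neutrophil markers, S100a8 and Il1b among them, summed to 347693 to 954309 normalised reads, although the transcript of the sorting antigen Ly6g was low, at 0.925 to 1039 in control and 0 to 619 in LOY libraries. The 15 heart muscle markers summed to 4114 to 8535 in control and 4429 to 63724 in LOY libraries, highest in LOY 10, and 10 macrophage markers to 7372 to 10073 and 4102 to 13811.

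Part of the mitochondrial genome has a near-identical copy in the nucleus, and this bears on 7 of the 13 mitochondrial genes. On chromosome 1, positions 24611535 to 24616197 of GRCm38, minus strand, GENCODE M21 annotates 7 unprocessed pseudogenes in a row (4663 bases): Gm29216 (copy of mt-Co1), Gm28661 (mt-Co2), Gm10925 (mt-Atp6), Gm28437 (mt-Co3), Gm28438 (mt-Nd3), Gm10222 (mt-Nd4l) and Gm28439 (mt-Nd4). Over the bases compared, the copies of mt-Nd4 (876 bases), mt-Nd4l (294), mt-Co2 (681), mt-Co3 (783) and mt-Atp6 (678) had 0 differences, that of mt-Nd3 had 1 in 345 and that of mt-Co1 had 6 in 492. The windows of 60 bases printed here show the 3 kinds of match, 1 base apart, several bases apart at the edge of the copy, and identical; bases that differ between a gene and its copy are in capitals.
mt-Nd3, chrM:9459-9518, plus strand: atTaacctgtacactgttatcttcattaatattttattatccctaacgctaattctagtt
Gm28438, chr1:24613060-24613119, minus strand: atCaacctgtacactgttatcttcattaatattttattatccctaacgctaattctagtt
mt-Co1, chrM:6381-6440, plus strand: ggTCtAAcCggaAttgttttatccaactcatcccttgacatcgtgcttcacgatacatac
Gm29216, chr1:24616138-24616197, minus strand: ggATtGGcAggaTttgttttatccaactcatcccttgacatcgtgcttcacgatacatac
mt-Co3, chrM:8968-9027, plus strand: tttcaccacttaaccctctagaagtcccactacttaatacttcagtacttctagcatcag
Gm28437, chr1:24613551-24613610, minus strand: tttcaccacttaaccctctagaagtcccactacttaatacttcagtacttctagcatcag
All 6 differences of the mt-Co1 copy lie in the window shown, within its opening bases. A more diverged set lies on chromosome 2: Gm13339 differed from mt-Nd2 at 17 of 510 bases, Gm13340 from mt-Co1 at 37 of 1545 and Gm13341 from mt-Co2 at 173 of 672. The comparison allowed no gaps, so an inserted or lost base shifts the bases beyond it, which then count as differences. The 173 can therefore overstate the divergence of Gm13341, in which 15.0% of the 100-base windows of mt-Co2 occurred unchanged.

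Cut into windows of 100 bases, 97.6% of mt-Nd3, 98.5% of mt-Nd4l, 99.5% of mt-Co2, 99.9% of mt-Co3 and 99.5% of mt-Atp6 also occurred in a nuclear copy. The share was 60.8% for mt-Nd4, 30.8% for mt-Co1 and 3.19% for mt-Nd2, and 0 for mt-Nd1, mt-Nd5, mt-Nd6, mt-Cytb and mt-Atp8. With windows of 50 bases it was 62.2% for mt-Nd4, 51.1% for mt-Co1, 8.19% for mt-Nd2 and 7.61% for mt-Nd5. It stayed at 0 for mt-Nd1, mt-Nd6, mt-Cytb and mt-Atp8. The gene mt-Atp8, which encodes a small subunit of ATP synthase, lies in the 230 bases between mt-Co2 and mt-Atp6, and no gene is annotated in the matching 233 bases between their chromosome 1 copies. A match to that stretch could therefore not be counted.

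The table credits reads to the copies at levels close to those of the mitochondrial genes they match. The mt-Atp6 gene had 2574 normalised reads in control 2 and 15962 in control 8, and its copy Gm10925 had 2657 and 14680; over the 12 libraries the ratio of copy to gene was 0.920 to 1.07 with a median of 1.00. For mt-Co2 and Gm28661 the ratio was 0.769 to 1.19, for mt-Co3 and Gm28437 1.34 to 1.495, for mt-Nd3 and Gm28438 0.537 to 1.01, and for mt-Nd4l and Gm10222 1.92 to 3.38. The ratio was lower for the genes with long stretches outside the copy, 0.0283 to 0.0629 for mt-Nd4 and Gm28439 and 0.0385 to 0.0882 for mt-Co1 and Gm29216. Copy and gene were thus high and low in the same libraries. Which genome the reads of shared stretches came from cannot be told apart, and the sources used here do not give how the counting treated a read that matched both places.

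**Figure D1:**
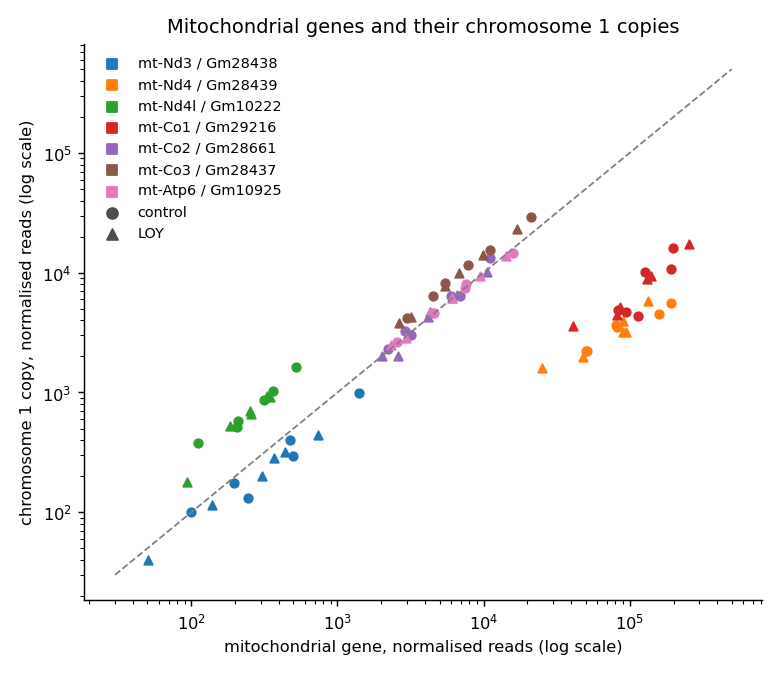
Normalised reads of 7 mitochondrial genes (horizontal log axis) against those of their chromosome 1 copies (vertical log axis), with 1 point per library, circles for control and triangles for LOY; the dashed line marks equal values. The points of mt-Atp6, mt-Co2, mt-Co3 and mt-Nd3 lie near the line, those of mt-Nd4l above it, and those of mt-Nd4 and mt-Co1 far below it.

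Levels per length differed widely among the mitochondrial genes. Per kilobase of exon, the 5 genes with at least 90% of their windows in a copy ran from 895 (mt-Nd4l) to 10404 (mt-Co3) normalised reads with a median of 7626, and the other 8 from 4789 (mt-Atp8) to 160145 (mt-Cytb) with a median of 74852. These 5 genes held 2.53% of the normalised reads of the mitochondrially encoded subunits and the other 8 held 97.5%. The level of mt-Co2, mt-Co3, mt-Atp6, mt-Nd3 and mt-Nd4l in this table cannot be compared with that of mt-Cytb or mt-Co1. Reads are also credited to their copies, and how a read that matched both places was counted is not given. The level of mt-Atp8 lay below those of mt-Co2, mt-Atp6 and mt-Co3 as well. Windows were compared only with annotated genes, and none is annotated where a chromosome 1 copy of mt-Atp8 would lie. Its lack of shared windows therefore does not set it apart from these 5 genes. A link between shared windows and level was not tested.

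Among the genes free of an annotated identical copy, mt-Cytb, the only subunit of complex III from mitochondrial DNA, had the highest level in the chain, at 22.8% of the mitochondrial sum. Its normalised reads were 82744 (lowest), 185389 (median) and 354309 (highest) in the control libraries and 72090, 150410 and 376652 in the LOY libraries. Both groups spread over the same range, with LOY 5, control 2 and LOY 3 lowest and LOY 15 and control 8 highest. The log2 fold change, LOY minus control, was -0.26 ± 0.39 (SE; limma on log2(normalised reads + 1), adjusted p = 0.999), with a 95% interval of -1.10 to 0.58.

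The catalytic core of complex IV, mt-Co1, made up 16.6% of the mitochondrial sum. Its normalised reads were 82946, 120464 and 199736 (lowest, median, highest) in control and 40740, 108423 and 254882 in LOY libraries, and its log2 fold change was -0.28 ± 0.36 (SE; limma adjusted p = 0.999). The groups overlapped almost fully, with LOY 5 and, narrowly, LOY 3 below all control libraries and LOY 15 above them.

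Of the complex I subunits from mitochondrial DNA, which form its proton-pumping membrane arm, mt-Nd1 made up 15.99%, mt-Nd5 13.4%, mt-Nd2 13.04%, mt-Nd4 11.3% and mt-Nd6 4.24% of the sum, with mt-Nd3 and mt-Nd4l at 0.0446% and 0.0348%. The medians for mt-Nd5 were 114446 in control and 85309.7 in LOY libraries, and those for mt-Nd1 were 121636 and 118589. The gene mt-Nd6 is the only subunit encoded on the other strand, shares 14 bases with the end of mt-Nd5, and had 65694 normalised reads per kilobase, beside 56413 for mt-Nd5. The libraries carry no strand, so reads of mt-Nd6 and of transcripts antisense to it cannot be told apart. The pairs mt-Atp8 and mt-Atp6, which share 43 bases, and mt-Nd4l and mt-Nd4, which share 7, are uncertain for the same reads.

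**Figure D2:**
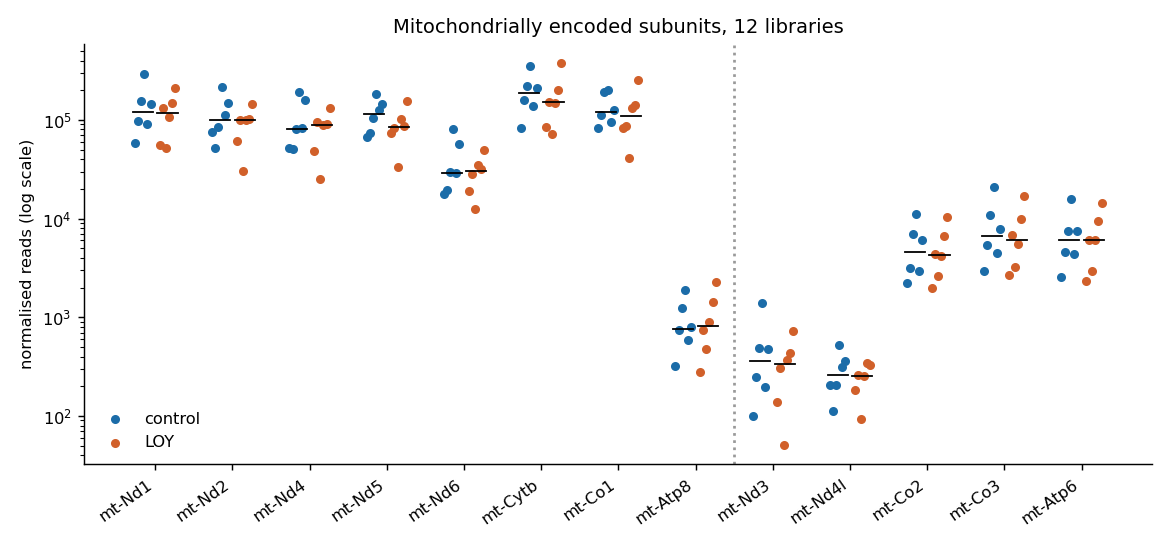
Normalised reads (log axis) of the 13 mitochondrially encoded subunits in each library, control in blue and LOY in orange, with black bars for group medians; the dotted line separates the 5 genes, at right, with at least 90% of their 100-base windows in a nuclear copy. The groups overlap for all 13 genes, and mt-Cytb has the highest medians, 185389 in control and 150410 in LOY libraries.

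The mitochondrial genes varied together between libraries. The SD over 12 libraries of the log2 level was 0.66 to 1.31 for the 13 genes, while the SD of the log2 ratio to mt-Cytb was 0.17 (mt-Nd1) to 0.62 (mt-Nd3) for the other 12. LOY 5 was among the 3 lowest libraries for all 13 genes, and control 8 was among the 2 highest for all 13.

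As a share of all normalised reads, the 13 mitochondrial subunits made up 6.07%, 7.11%, 10.6%, 17.3%, 9.61% and 12.6% in control 2, 6, 7, 8, 11 and 12. They made up 6.29%, 8.81%, 3.59%, 10.1%, 11.2% and 15.4% in LOY 3, 4, 5, 10, 14 and 15. The means were 10.5% ± 4.05 and 9.24% ± 4.09 (SD, n = 6 each), a difference smaller than the spread within either group. The 79 nuclear subunits took 0.580% ± 0.150 in control and 0.683% ± 0.147 in LOY libraries (SD, n = 6 each), with 0.479% (control 11) lowest and 0.870% (LOY 15) highest.

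The log2 ratio of the mitochondrial to the nuclear sum was 3.65, 3.49, 4.41, 4.32, 4.33 and 4.59 in the control libraries in that order, and 3.56, 3.99, 2.43, 3.57, 4.16 and 4.15 in the LOY libraries. The 4 highest values were control libraries and the lowest was LOY 5, while control 2 and control 6 lay among the LOY values. The means were 4.13 ± 0.45 and 3.64 ± 0.65 (SD, n = 6 each), a difference of -0.49 that is close to 1 SD. Leaving out each library in turn gave -0.61 to -0.24, the latter without LOY 5, which held the lowest share of mitochondrial and not of nuclear subunits (0.667%). The ratio is a description of these libraries, with no test. In libraries of sorted cells, fewer cells of a type and less RNA per cell cannot be told apart.

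**Figure D3:**
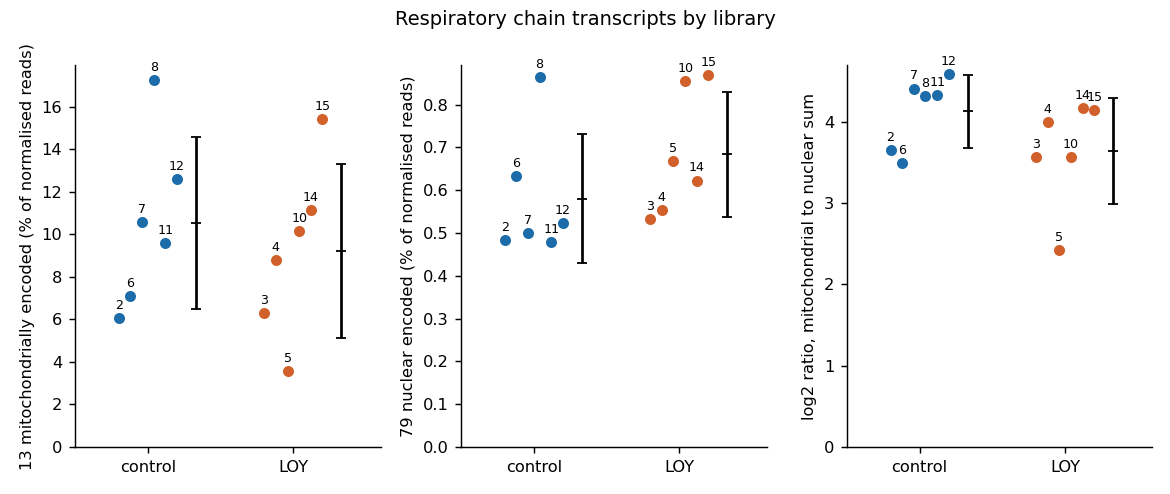
Share of all normalised reads in the 13 mitochondrially encoded subunits (left, percent), in the 79 nuclear encoded subunits (centre, percent) and the log2 ratio of their sums (right), with 1 numbered point per library and the mean ± SD of each group beside it. The groups overlap in all 3 panels; control 8 (17.3%) and LOY 15 (15.4%) hold the largest mitochondrial shares and LOY 5 the lowest ratio (2.43).

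Across the 90 subunits that passed the filter on low values (10 normalised reads or more in 6 or more libraries), 0 passed an adjusted p of 0.05 in limma, beside 2 of 6951 genes (0.0288%). DESeq2 on the recovered reads also called 0 members against 303 of 9723 genes (3.12%), and edgeR 0 members against 0 of 7054 (0%). At an unadjusted p under 0.05, limma had 3 of 90 members, which is 3.33% beside 4.37% of all genes tested: Uqcrc1 and Atp5d were higher in LOY (beside 2.33% of all genes) and Atp5o lower (beside 2.04%). DESeq2 had Atp5d, Uqcrc1 and Atp5s beside 10.1% of all genes, and edgeR had Atp5d and Uqcrc1 beside 1.84%. In limma the count for the members was thus near the background. No member had groups that did not overlap (0 of 90, beside 14 of 6951 genes, 0.201%, of which 7, 0.101%, were higher in LOY). Of the 90 tested members, 5 had a 95% interval of the log2 fold change that stayed within 1 in both directions, all 5 nuclear encoded, and the intervals of the others include changes of more than 2-fold.

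The fold changes of the 2 genomes lay on opposite sides of 0 on balance, a difference that was not tested. Of the 13 mitochondrial subunits 12 had a negative log2 fold change, from -0.44 (mt-Nd3) to 0.03 (mt-Atp8), with a median of -0.26. Of the 77 nuclear subunits tested 46 were positive and 31 negative with a median of 0.17, beside a median of 0.01 over all genes, of which 50.4% were positive. The 12 negative signs are not 12 separate observations, because these genes varied together. Without control 8 the median of the mitochondrial genes was -0.03 and 6 of 13 were positive; without LOY 5 it was also -0.03 and 5 were positive; without LOY 15 it was -0.51 and 0 were positive.

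**Figure D4:**
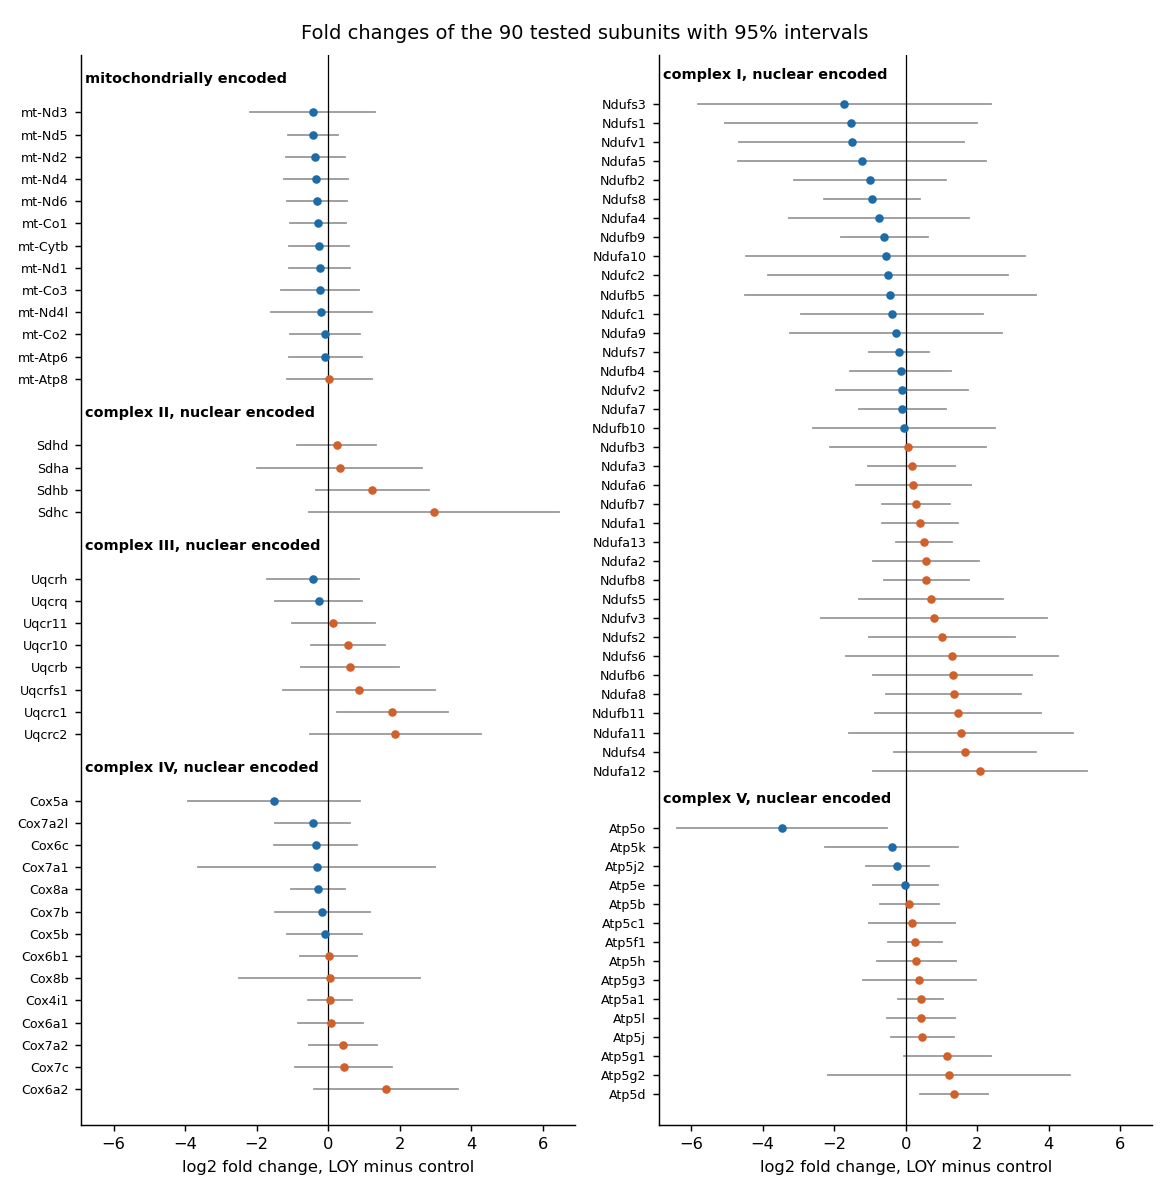
Log2 fold change, LOY minus control, of the 90 tested subunits with 95% intervals (grey lines), sorted within the mitochondrially encoded genes and within each nuclear encoded complex; orange points are above 0 and blue points below. The intervals of all genes except Uqcrc1, Atp5d and Atp5o include 0, and the 13 mitochondrial genes cluster between -0.44 and 0.03.

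Complex I receives the electrons of NADH. Its 36 nuclear encoded subunits tested split evenly, 18 positive and 18 negative, with a median log2 fold change of 0.00 and 0 at an unadjusted p under 0.05. The 2 of highest mean were Ndufa7, with 506.8, 1120.1 and 2285 normalised reads (lowest, median, highest) in control and 220.1, 1058 and 2725 in LOY libraries, and Ndufb9, with 617, 882 and 2638 against 233, 775 and 1930. The groups overlapped for both genes, with control 8 and LOY 15 highest, although LOY 3, LOY 4 and LOY 14 lay below every control library for Ndufb9.

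The smallest p of complex I belonged to Ndufs4, an accessory subunit of the NADH-oxidising arm whose loss in mice gives a model of Leigh syndrome. It had 24.7, 113 and 627 normalised reads in control and 86.2, 512 and 603 in LOY libraries, with control 6 above every LOY library. Its log2 fold change was 1.67 ± 0.93 (SE; limma adjusted p = 0.997), and 1.09 in edgeR. Ndufa8, an accessory subunit, had 20.3, 331 and 621 against 124, 834 and 1360, a log2 fold change of 1.34 ± 0.88 (SE; limma adjusted p = 0.997) that was 0.65 without control 8.

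Ndufa4 was measured in every library, at 149.7, 549.96 and 926 normalised reads in control and 3.15, 614 and 1036 in LOY libraries, with LOY 14 far below the rest. Its relative Ndufa4l2, a gene known to be induced by hypoxia, was at 0 in 9 of 12 libraries, with 57.4 in control 11, 56.3 in LOY 3 and 149.7 in LOY 10. It did not pass the filter and has no limma test.

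Complex II, succinate dehydrogenase, also serves the tricarboxylic acid cycle. All 4 subunits had positive log2 fold changes with a median of 0.78, and 0 were at an unadjusted p under 0.05. The membrane anchor Sdhc had 0, 55.2 and 168 normalised reads (lowest, median, highest) in control and 5.93, 180 and 749.7 in LOY libraries, with LOY 14 and LOY 15 above the rest. Its log2 fold change was 2.96 ± 1.63 (SE; limma adjusted p = 0.997), and 3 control and 1 LOY libraries were under 10 normalised reads. It was 2.12 in DESeq2, 2.13 in edgeR and 2.10 (without control 12) to 3.84 (without LOY 5) with a library left out. The iron-sulphur subunit Sdhb had 54.5, 588 and 1127 against 253, 1027 and 2188, a log2 fold change of 1.24 ± 0.74 (SE; limma adjusted p = 0.997), and of 0.67 without control 8. The catalytic subunit Sdha was at 22.8 in control 8 and 57.7 in LOY 15, the 2 libraries richest in mitochondrial reads, and at 365 to 2195 in the other libraries. The other anchor, Sdhd, had medians of 913 in control and 1104 in LOY libraries.

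Complex III passes electrons from ubiquinol to cytochrome c. Of its 8 nuclear subunits 6 were positive, with a median log2 fold change of 0.58. Uqcrc1, a core subunit, had 568, 30.7, 655, 168, 452 and 634 normalised reads in control 2, 6, 7, 8, 11 and 12 and 878, 1103, 1176, 415, 1118 and 1874 in LOY 3, 4, 5, 10, 14 and 15. The LOY libraries were above every control library except for LOY 10, which lay among them. The means were 418 ± 260 and 1094 ± 474 (SD, n = 6 each). The log2 fold change was 1.79 ± 0.72 (SE; limma unadjusted p = 0.0266, adjusted p = 0.997), and it was 1.15 without control 6, the lowest library. Without LOY 15 it was 1.61 and no longer at an unadjusted p under 0.05. In the authors' deposited table it was 1.39 with an adjusted p of 0.336, and DESeq2 on the recovered reads gave the same fold change.

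The other core subunit, Uqcrc2, had 6.74, 268 and 769 normalised reads in control and 229, 463 and 1272 in LOY libraries. Its log2 fold change was 1.88 ± 1.12 (SE; limma adjusted p = 0.997), 0.80 in DESeq2 and 1.07 without control 6; control 6 (6.74) and control 8 (17.7) were far below the other libraries. Uqcrc2 shares 504 of its 2552 exon bases with Pdzd9 on the opposite strand. The libraries carry no strand, so reads of that stretch are uncertain. Uqcr11, a small subunit of high level, had medians of 559.96 and 618.

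Complex IV, cytochrome c oxidase, reduces oxygen. Its 14 nuclear subunits split 7 to 7 with a median log2 fold change of -0.04, and it held the nuclear subunits of highest level per length, with Cox8a at 3407 normalised reads per kilobase against a median of 342 over the 79 nuclear subunits. Cox4i1, which takes part in the regulation of the enzyme by ATP, had the smallest SE of its fold change among the members, 0.29, at 1187, 2088 and 2889 normalised reads in control and 1498, 2032 and 3199.7 in LOY libraries. Cox5a, at 204, 479.7 and 1081 in control and 12.4, 397 and 1229 in LOY libraries, had a log2 fold change of -1.51 ± 1.12 (SE; limma adjusted p = 0.997); LOY 5 (13.8) and LOY 15 (12.4) were far below the other 10 libraries. The same fold change was -0.79 without LOY 15, -0.31 in DESeq2 and -0.32 in edgeR. The counterpart of Cox4i1 found in lung, Cox4i2, and the testis form Cox6b2 were not among the listed genes.

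For 3 subunits of complex IV there is a form that prevails in heart and skeletal muscle and a form found in most tissues. The ubiquitous forms were the more abundant, with median normalised reads in control and LOY libraries of 1186 and 1131 for Cox6a1, 518 and 821 for Cox7a2, and 2002 and 1678 for Cox8a. The muscle forms had medians of 158 and 313 for Cox6a2, 122 and 139 for Cox7a1, and 128 and 88.96 for Cox8b. Per kilobase, the means over all libraries were 1885 and 426 for Cox6a1 and Cox6a2, 812 and 346 for Cox7a2 and Cox7a1, and 3407 and 342 for Cox8a and Cox8b. Reads of a heart muscle form were thus counted in neutrophil libraries for each of the 3 pairs. Cox6a2 shares 70 of its 680 exon bases with Itgad on the opposite strand. The libraries carry no strand, so reads of that stretch cannot be told apart. Exon bases shared with another gene were found for 29 nuclear subunits.

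Cox6a2 had 19.6, 341, 291, 30.4, 77.3 and 239 normalised reads in control 2, 6, 7, 8, 11 and 12 and 262, 204, 119, 1159, 371 and 365 in LOY 3, 4, 5, 10, 14 and 15. LOY 10 was more than 3 times the next library, and the other 5 LOY libraries overlapped the control ones. The log2 fold change was 1.62 ± 0.94 (SE; limma adjusted p = 0.997) and 1.24 without LOY 10. Cox8b was also highest in LOY 10 (349.6 against 19.0 to 114 in the other LOY libraries and 3.41 to 258 in control), with a log2 fold change of 0.05 ± 1.18 whose sign turned in part of the alternatives. Cox7a1 was highest in control 8 (766), at 0 in LOY 5, and had a log2 fold change of -0.31 ± 1.55, again with a sign that depended on the library left out (limma adjusted p = 1.00 for both genes).

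The heart muscle markers, which are no respiratory chain genes, were highest in LOY 10 as well. They summed to 5063, 8535, 6365, 5762, 5672 and 4114 normalised reads in control 2, 6, 7, 8, 11 and 12 and to 14918, 11194, 4429, 63724, 12316 and 14875 in LOY 3, 4, 5, 10, 14 and 15. Of the 15 markers 14 had a positive log2 fold change, 5 (33.3%, beside 4.37% of all genes tested) were at an unadjusted p under 0.05 and 0 were called by limma. The defining markers Myh6, Ttn, Actc1 and Tnnt2 were above 0 in all 12 libraries, while Ryr2, Nppb and Myl7 were at 0 in 6. The sum of the 3 muscle forms was 1724 in LOY 10 and 135 to 955 in the other libraries, and that of their ubiquitous counterparts 3312 in LOY 10 and 2494 to 8965 in the others. Most markers of endothelial cells and fibroblasts had positive log2 fold changes too. Most macrophage markers (7 of 9 tested) and neutrophil markers (9 of 12 tested) had negative ones. The 10 endothelial markers summed to 1062 to 4097 normalised reads in control and 2238 to 6305 in LOY libraries, highest in LOY 15. Of 8 tested, 6 were positive and 2 (25.0%, beside 4.37% of all genes tested) were at an unadjusted p under 0.05. The 7 fibroblast markers summed to 139 to 1537 in control and 386 to 9344 in LOY libraries, highest in LOY 10. Of 5 tested, 5 were positive and 1 (20.0%, beside 4.37%) was at an unadjusted p under 0.05. The part of heart muscle, endothelial or fibroblast RNA in the levels of the subunits was not tested. The median log2 fold change of the nuclear subunits, 0.17 with all libraries, was 0.04 without LOY 10, 0.05 without LOY 15 and 0.10 without control 11, and up to 0.33 (without LOY 3) with another library left out.

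**Figure D5:**
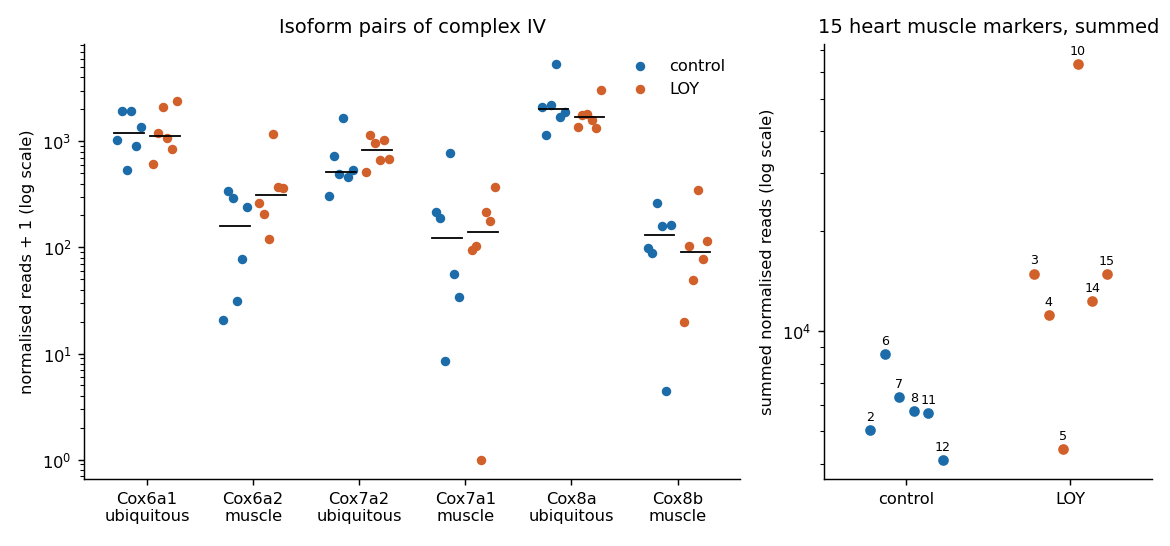
Left, normalised reads + 1 (log axis) of the ubiquitous and muscle forms of 3 subunits of complex IV in each library, with black bars for group medians; right, summed normalised reads (log axis) of 15 heart muscle markers with the library numbers, control in blue and LOY in orange. LOY 10 is highest in Cox6a2 (1159), in Cox8b (349.6) and in the marker sum (63724).

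Complex V, ATP synthase, makes ATP from the proton gradient. Of its 15 nuclear subunits tested 11 were positive, with a median log2 fold change of 0.30. Atp5d, the delta subunit of the central stalk, had 410.4, 922, 369, 260 and 354 normalised reads in control 2, 6, 7, 8 and 11 and 520.1 in control 12, against 684, 836, 1464, 1439, 684 and 2303 in LOY 3, 4, 5, 10, 14 and 15. Every LOY library was above every control library except control 6. The means were 472 ± 236 and 1235 ± 633 (SD, n = 6 each), and the log2 fold change was 1.36 ± 0.44 (SE; limma unadjusted p = 0.00816, adjusted p = 0.997). It was 1.15 to 1.57 with a library left out. In the authors' deposited table its log2 fold change was 1.39 with an adjusted p of 0.0755, the smallest of the members there. DESeq2 on the recovered reads gave the same fold change.

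Atp5o, a subunit of the peripheral stalk, had 82.3, 0, 11.9, 811, 133 and 20.6 normalised reads in LOY 3, 4, 5, 10, 14 and 15, against 273 to 1245 in control. All LOY libraries except LOY 10 were below every control library. The log2 fold change was -3.47 ± 1.37 (SE; limma unadjusted p = 0.0237, adjusted p = 0.997), -2.43 without LOY 4, -4.36 without LOY 10 and -1.44 in edgeR, and DESeq2 gave it no p-value. It was not at an unadjusted p under 0.05 in edgeR, with array weights or without control 8. Reads of Atp5o are uncertain: 27.9% of its 100-base windows occur in another gene, and its exons share 243 bases with another annotated gene of the same name.

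The catalytic pair Atp5b and Atp5a1 had the highest means of the complex, with medians of 3014 and 2915 normalised reads for Atp5b and 1449 and 1766 for Atp5a1 in control and LOY libraries. The same mature ring subunit c is encoded by 3 genes. Atp5g1 had 103, 298 and 922 normalised reads in control and 409, 674 and 1153 in LOY libraries, Atp5g3 had 116, 212 and 798 against 113, 289.6 and 1084, and Atp5g2 was lowest at 0.725, 12.98 and 146 against 0, 82.0 and 204. Of Atp5g2, 34.7% of windows occur in other genes. The factor Atp5s did not pass the filter: it was at 0 in 6 libraries, at 6.53 in control 2 and 4.49 in control 6, and at 79.5, 199, 89.0 and 332 in LOY 3, 4, 10 and 14.

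Of the 79 nuclear subunits, 27 (34.2%) were under 10 normalised reads in at least 1 library. Of the 19 with a mean of 100 to 300 the number was 15 (78.9%), beside 92.7% of the 2812 listed genes of that mean, and of the 45 with a mean of 300 to 1000 it was 9 (20.0%), beside 50.6% of 2186; these differences were not tested. No mitochondrial gene was under 10 in any library. By library, the number of nuclear subunits under 10 was 7, 5, 8, 3, 6 and 7 in control 2, 6, 7, 8, 11 and 12 and 2, 9, 11, 0, 5 and 4 in LOY 3, 4, 5, 10, 14 and 15. The median SD of log2 levels within groups was 0.80 for the mitochondrial subunits and 1.19 for the nuclear subunits tested, beside 2.37 for all genes tested. These sets differ in level. In the highest class of mean level it was 0.798 for 10 mitochondrial genes, beside 0.560 for all 380 listed genes. At means of 300 to 1000 it was 1.17 for 2 mitochondrial and 0.988 for 45 nuclear subunits, beside 1.95. At 100 to 300 it was 0.736 for 1 mitochondrial and 2.39 for 19 nuclear subunits, beside 3.34. The 3 nuclear subunits of mean 10 to 100 had 2.86, beside 2.69. These differences were not tested. The medians of normalised reads per kilobase were 443 for complex IV, 389 for complex III, 362 for complex V, 308 for complex II and 230.4 for complex I, and the ranges of all 5 overlap. Lengths were unions of all annotated exons, such as 619 bases for Cox8a and 6443 for Atp5l. The order of the complexes thus depends on the annotation as well as on the reads.

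Genes that serve the chain without being part of it were taken from lists of their own. Of 38 assembly factors listed 19 were tested, 10 positive and 9 negative, with 0 called by limma and 0 at an unadjusted p under 0.05. Cox17, a copper chaperone for complex IV, had the highest level of them, at 964, 1454 and 2068 normalised reads in control and 558, 844 and 1913 in LOY libraries. Pet100 and Cox14, which act in complex IV assembly, had medians of 446 and 606 in control and 617 and 479 in LOY libraries. Ndufaf8, an assembly factor of complex I, had medians of 78.4 and 134, and Ttc19, which acts on complex III, 19.8 and 0.515.

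Among 17 listed genes of the electron carriers and their synthesis, 10 were tested, 5 positive and 5 negative, with 0 called and 0 at an unadjusted p under 0.05. The cytochrome genes Cyc1, the haem-bearing subunit of complex III whose symbol lay outside the name rule, and Cycs, cytochrome c, had medians of 339 and 489.7 in control and 613 and 544 in LOY libraries. Gpd2, which feeds electrons from glycerol phosphate to ubiquinone, had medians of 136 and 432. Of 15 tested enzymes of the tricarboxylic acid cycle 9 were positive and 6 negative, with 0 called and 0 at an unadjusted p under 0.05; Mdh2, malate dehydrogenase, was the most abundant at medians of 1926 and 2459.8. Of 49 tested mitochondrial ribosomal proteins 30 were positive, with 0 called and 1 at an unadjusted p under 0.05.

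Of 29 listed genes that copy, process or maintain mitochondrial RNA and DNA, only 8 passed the filter, 5 positive and 3 negative, with 0 called. Fastk, a kinase-family protein of mitochondria known to be needed for mt-Nd6 messenger RNA, was the 1 gene at an unadjusted p under 0.05. It had 0.725, 3.74, 0, 10.1, 1.14 and 299 normalised reads in control 2, 6, 7, 8, 11 and 12 and 227, 321, 487, 273, 199 and 86.5 in LOY 3, 4, 5, 10, 14 and 15. All LOY libraries were above 5 of the 6 control libraries, and control 12 was among them (limma unadjusted p = 0.00197, adjusted p = 0.806). Over the same libraries mt-Nd6 had medians of 29126 in control and 30021 in LOY libraries, means of 38927 and 29263, and a log2 fold change of -0.32 ± 0.39 (SE; limma adjusted p = 0.999). Tfam, the factor that packs and transcribes mitochondrial DNA, was above 10 in control 2 (228) and control 6 (220.04) alone.

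Of 9 listed regulators of respiratory chain transcription 7 were tested, 3 positive and 4 negative, with 0 called and 0 at an unadjusted p under 0.05. Nfe2l2, known as Nrf2, had the highest level with medians of 5845 and 4788. Nrf1, nuclear respiratory factor, had medians of 371 and 423, and Gabpb1 and Gabpa, the subunits of GA-binding protein, 174 and 201 in control and 400.3 and 25.2 in LOY libraries. Ppargc1a and Ppargc1b, coactivators of mitochondrial genes, were not among the listed genes.

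Promoters of nuclear subunits were searched on both strands for the letters bound by 3 of these regulators. The RefSeq table of GRCm38.p6 held a promoter, 250 bases before to 50 after the start site, for 64 of the 79 genes. The NRF1 motif (GCGCA, any base, then GCGC) occurred in 17 of 64 (26.6%), beside 5.19% of 27025 genes with a promoter of that length in the table. The GA-binding protein motif CCGGAAG occurred in 16 (25.0%) beside 9.93%, and the YY1 motif AAGATGGC in 9 (14.1%) beside 3.19%. At least 1 of the 3 was in 36 promoters, and matches of different motifs did not overlap. These are matches of letters only, with no measured binding. The 27025 genes were not matched to the members in level or in the base content of their promoters, and the differences in share were not tested. The stretches printed lie upstream of the start site and were picked to show a match in a subunit of each of complexes II to V, written on the gene's strand with the match to either strand in capitals.
Cox6a1, chr5:115349096-115349135, minus strand, NRF1: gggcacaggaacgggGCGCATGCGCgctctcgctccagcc
Atp5k, chr5:108434425-108434464, minus strand, NRF1: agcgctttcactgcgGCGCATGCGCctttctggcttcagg
Sdha, chr13:74350271-74350310, minus strand, NRF1: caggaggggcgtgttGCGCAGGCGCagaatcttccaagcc
Sdhd, chr9:50603904-50603943, minus strand, NRF1: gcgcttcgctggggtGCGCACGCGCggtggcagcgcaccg
Cox6b1, chr7:30626121-30626157, minus strand, GA-binding protein: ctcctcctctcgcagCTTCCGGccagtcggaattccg
Uqcr11, chr10:80406866-80406902, minus strand, GA-binding protein: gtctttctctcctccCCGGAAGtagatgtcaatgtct
Among the 2 members of positive sign at an unadjusted p under 0.05, the Uqcrc1 promoter held the NRF1 letters and the Atp5d promoter held none of the 3 motifs in this window.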

How the data were processed

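The authors deposited 1 table of 11911 genes with a signal value per library, the reads of a gene over its library's size factor per the file headers and the values, and a log2 fold change with a p-value and adjusted p-value per gene. Every value was a whole multiple of its library's step (100%, within 0.01 of a read), so the reads could be recovered. Per the labels' protocols, full-length cDNA came from the SMART-Seq v4 kit and libraries from Nextera XT, which do not mark strand. Per the submitters' processing notes, use was made of featureCounts from Subread 1.5.2, STAR 2.5.2b, Trimmomatic 0.36 and bcl2fastq 2.17, and the builds GRCm38 and mm10. The sources used here do not name the authors' test. DESeq2 on the recovered reads gave the deposited log2 fold changes and p-values of Atp5d and Uqcrc1 again. The deposited values are thus no separate result beside those of DESeq2. Totals per library are over the listed genes.

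The main test was limma 3.58.1 (R 4.3.3; trend, robust empirical Bayes, all 12 libraries, genotype as the only term) on log2(normalised reads + 1), for 6951 genes of at least 10 in at least 6 libraries, with Benjamini-Hochberg adjustment over them and a threshold of 0.05. Fold changes are on this log2 scale, on which libraries near 0 weigh heavily: that of Cox5a was -1.51, beside -0.31 in DESeq2. Alternatives were DESeq2 1.42.0 and edgeR 4.0.16 on the recovered reads, quantile, library-total and total-without-mitochondrial-genes scaling, no filter, a mean of at least 50, pseudocounts of 0.5 and 5, array weights and each library left out. Nuclear copies added to the mitochondrial sum were an alternative chosen after seeing the data. Tested on simulated counts with the mean levels of these genes, the fit called a small minority of the changed genes and no unchanged gene. The simulated spread was capped below that of the noisier genes here, so this does not show how the fit does on them. Gene models are GENCODE M21, in which 92 of 92 members matched. Lengths are unions of exons, and windows of 100 and of 50 bases were compared with all exons of GENCODE M21.

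The members and lists were chosen with earlier results of these data known. Genes named are the 13 mitochondrial ones, isoform sets, per complex the 2 of smallest p and 2 of highest mean, and per other list up to 3 of each. Atp5s, Tfam, Ppargc1a, Ppargc1b, Ly6g, S100a8, Il1b and the heart muscle markers at 0 were named after their values were seen.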

Additional observations from a re-analysis of the deposited data

Results flagged for a closer look

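In 96 groups of 6 libraries examined (the named genes and the sums, each in both genotypes), 19 held a library set apart from the others. Its gap to its nearest neighbour, as a share of the group's range, was above Dixon's 95% critical value. Chance gives about 1 in 20 groups only where values are normally distributed. Except for the log2 ratio, the flagged values were normalised reads and not logs, so 19 of 96 cannot be set against that rate. The genes also share libraries. Control 8 was the high library in 8 of the flags: Cox8a (5377 normalised reads), Cox6b1 (4162), Cox7a2 (1665), Atp5o (1245), Atp5g3 (798), Cox7a1 (766), mt-Atp6 (15962) and mt-Nd3 (1404). This library also had the lowest total of reads among the controls (7176250) and the largest mitochondrial share. LOY 10 was the high library for Cox6a2 (1159), Atp5o (811) and Cox8b (349.6), and it also had the highest heart muscle marker sum (63724). LOY 15 was high for Cox8a (3037), LOY 14 for Uqcrc2 (1272), control 6 for Atp5g1 (922) and Ndufs4 (627), and control 11 for Ndufa4l2 (57.4, with the other 5 at 0). Control 12 was high for Atp5g2 (146) and low for Atp5a1 (830). The log2 ratio of mitochondrial to nuclear subunits was lowest in LOY 5 (2.43), with the next LOY library at 3.56. The part of depth or of heart muscle RNA in these values was not tested.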

How the results depend on the processing

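No paired analysis was possible because the 2 genotypes share no replicate numbers. The count of members called was 0 under all 22 alternatives run. The count over all genes was 2 in the main test, 303 in DESeq2, 0 in edgeR, 0 with no filter, 0 with a mean of at least 50, and 0 to 4 with a library left out; the cause was not tested, beyond the different number of genes tested. The median log2 fold change of the mitochondrial subunits was negative under all 22, from -0.51 to -0.03, and that of the nuclear subunits positive, from 0.04 to 0.33. The difference in log2 ratio of their sums was negative under its 16 alternatives, from -0.61 to -0.24, and was -0.48 with the nuclear copies added. Of 417 values of 19 single genes under alternatives, 21 in 5 genes turned sign; none of these genes was called. With a library left out, mt-Nd3 turned to 0.023 without LOY 5, mt-Atp8 ranged from -0.27 to 0.34, Cox6a1 from -0.15 to 0.27, Cox7a1 from -0.99 to 0.92 and Cox8b from -0.79 to 0.46. With array weights, Cox6a1 was -0.021 and Cox7a1 was 0.41. Cox8b was -0.11 in DESeq2, -0.13 in edgeR, -0.042 with quantile normalization and -0.049 with a pseudocount of 5. The total of 6767108 to 12561174 reads per library does not limit the mitochondrial genes, all above 10 normalised reads in every library, while 27 of 79 nuclear subunits fell under 10 in at least 1.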
